A study of Mus musculus with 9 samples.

Results

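The genes described here are the proto-oncogene family Myc, Mycn and Mycl, their shared partner Max, and the Max-binding repressors Mxd1, Mxd4, Mxi1 and Mnt, measured in mouse heart. They are 8 genes named by symbol, of which 7 had a row among the 13890 genes of the deposited counts and all of these 7 passed the filter on low counts that kept 13364 genes. Expression of Mycl was not analysed here. The set was chosen by gene family, with the fall of Mycn in the hearts labelled T vs. S already known. Values of T vs. S are therefore given for these genes as a description only. That includes the number of them past the threshold used for all genes, which is no test of the set and from which nothing is read. The other gene lists below were also chosen with earlier results of these data known, and their counts are likewise descriptions.

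Heart RNA came from 9 male NSG mice, an immunodeficient strain that accepts human cells, which were 8 weeks old when the experiment began and were killed about 3 weeks later. The 3 sham mice (S, animals 2, 3 and 5) had a sham operation with saline. The label of the second group (T, animals 11, 12 and 15) gives an injection into the spleen of HCT116, a cell line from a human colorectal cancer. The label of the third group (A + T, animals 20, 21 and 22) gives the same cells with weekly ACVR2B/Fc, a soluble receptor that binds activins, myostatin and related ligands. The treatment behind the label T is in doubt. Over the gene list that accompanies the study, the changes of these libraries from S followed the comparison of ACVR2B/Fc-treated sham mice with sham mice closely. They followed that of tumour hosts with sham mice only weakly. T below therefore stands for the libraries labelled T, and any direction for T is that of those libraries. Libraries labelled as sham mice given ACVR2B/Fc were not analysed here.

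Proteins of the Myc family bind DNA only as pairs with Max, through a basic helix-loop-helix leucine zipper, at the E-box sequence CACGTG, and they raise transcription of genes for ribosome production, metabolism and the cell cycle. Mxd proteins, Mxi1 and Mnt pair with the same Max at the same sequence, recruit the Sin3 corepressors with histone deacetylases, and lower transcription. In the embryonic heart Mycn is needed for growth of the muscle wall, whereas in the adult heart Myc is the member known to rise under load or injury.

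The promoter sequences show which members carry the network's own binding letters near their start. RefSeq windows of GRCm38 (the assembly of mm10, used for the counts) were found for 7 of the 8 genes, all but Myc, 9 windows in all since Mxi1 has 3 starts. Each window was searched over the 250 bases before the start for CACGTG, which reads the same on both strands, and for TTTGGCGC on both strands, letters found in sites of E2F factors. The E-box letters stood in the windows of Mxd4 and Mnt, 2 of the 9 windows searched, against 6.02% of all 32851 windows. The E2F-type letters stood in 1 of the 9, that of Mycn, as 2 copies, against 0.417% of all windows. The stretches below are printed 5′ to 3′ on the strand of the gene, from 250 to 91 bases before the start, with the matched letters in capitals. They lie at chr12:12941927-12942086 on the minus strand (Mycn), chr5:34187801-34187960 on the minus strand (Mxd4) and chr11:74830674-74830833 on the plus strand (Mnt).
Mycn: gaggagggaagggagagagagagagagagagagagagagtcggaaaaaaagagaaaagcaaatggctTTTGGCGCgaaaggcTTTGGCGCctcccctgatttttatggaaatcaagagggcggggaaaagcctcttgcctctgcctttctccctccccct
Mxd4: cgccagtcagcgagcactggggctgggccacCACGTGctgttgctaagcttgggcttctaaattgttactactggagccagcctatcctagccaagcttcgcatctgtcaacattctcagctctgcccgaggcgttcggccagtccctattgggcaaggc
Mnt: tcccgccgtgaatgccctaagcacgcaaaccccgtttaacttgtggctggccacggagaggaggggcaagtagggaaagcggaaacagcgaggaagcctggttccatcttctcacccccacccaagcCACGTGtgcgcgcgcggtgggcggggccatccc
A match describes the letters of these windows and is not evidence of binding in these hearts.

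The 9 libraries held between 12392222 and 19732471 counts on genes, so that 3 counts, taken as the lowest level from which a difference is read, were worth 0.152 to 0.281 CPM (counts scaled to a common library size with TMM). Rn45s, a ribosomal RNA gene, held 4.57% to 19.6% of the counts, with no order by group. By the series' design text, RNA of all hearts was isolated and sequenced at one time. Titles number the animals, and within each group every pair of libraries was further apart than counting alone allows (chi-square per gene of at least 7.70). Rn45s was included in that value, and its part in it was not tested. Summed over their 5 markers, heart muscle cells were strongly represented in every library, with 35341 to 57840 CPM. Counting error alone is covered by intervals on counts, and with 3 libraries against 3 an exact permutation test of 1 gene cannot give a P-value under 0.1.

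Mycn, on the minus strand of chromosome 12 from 12936093 to 12941914 (GRCm38, GENCODE M21), was the member with the largest differences. Reads assigned to it numbered 60, 94 and 62 in the S hearts, 10, 6 and 4 in the T hearts, and 25, 24 and 19 in the A + T hearts. On the CPM scale the S hearts measured 3.32, 4.77 and 4.48, the T hearts 0.619, 0.357 and 0.374, and the A + T hearts 1.55, 1.72 and 1.17. The groups did not overlap in any of the 3 comparisons, with A + T lying between T and S. Of all genes tested, 42.6% did not overlap in T vs. S, 25.4% in A + T vs. T and 32.4% in A + T vs. S. The same shares stand beside each statement below that groups of a gene did not overlap. Mean levels of Mycn were 4.19 ± 0.769 CPM for S, 0.450 ± 0.147 for T and 1.48 ± 0.282 for A + T (SD, n = 3). The T libraries were near the limit of reading, since the lowest count of 4 has a 95% Poisson interval of 1.09 to 10.2 counts.

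Mycn had a fitted log2 fold change of −3.18 for T vs. S (SE 0.31, 95% interval −3.86 to −2.50), which is 9.04-fold lower in T. Between A + T and T, Mycn was higher in A + T by a log2 fold change of 1.68 (SE 0.33, 3.19-fold, edgeR quasi-likelihood adjusted P = 0.0200). It nevertheless remained lower than in S, with a log2 fold change of −1.50 in A + T vs. S (SE 0.26, 2.83-fold lower, adjusted P = 0.00957 from edgeR). These comparisons share the T or the S libraries with the comparison in which Mycn was already known to fall. The call in A + T vs. T was lost without animal 12 of T (adjusted P = 0.0639 from edgeR), without animal 20 (0.0562) or animal 21 of A + T (0.0518), and when only T and A + T were fitted (0.0660). Over all settings and all fits without an animal in which Mycn was tested, the log2 fold change of A + T vs. T stayed between 1.49 and 2.00. The call in A + T vs. S was lost without animal 3 of S (adjusted P = 0.0504 from edgeR).

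Myc, on the plus strand of chromosome 15 from 61985391 to 61990374, moved the other way. The S hearts had 67, 78 and 48 counts, the T hearts 140, 147 and 116, and the A + T hearts 145, 172 and 143. Scaled to CPM, the values were 3.70, 3.96 and 3.47 for S, 8.67, 8.74 and 10.8 for T, and 8.96, 12.3 and 8.81 for A + T. Every library of T and of A + T lay above every S library, while T and A + T overlapped. The mean of Myc was 3.71 ± 0.243 CPM for S, 9.42 ± 1.24 for T and 10.04 ± 1.997 for A + T (SD, n = 3).

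**Figure D1:**
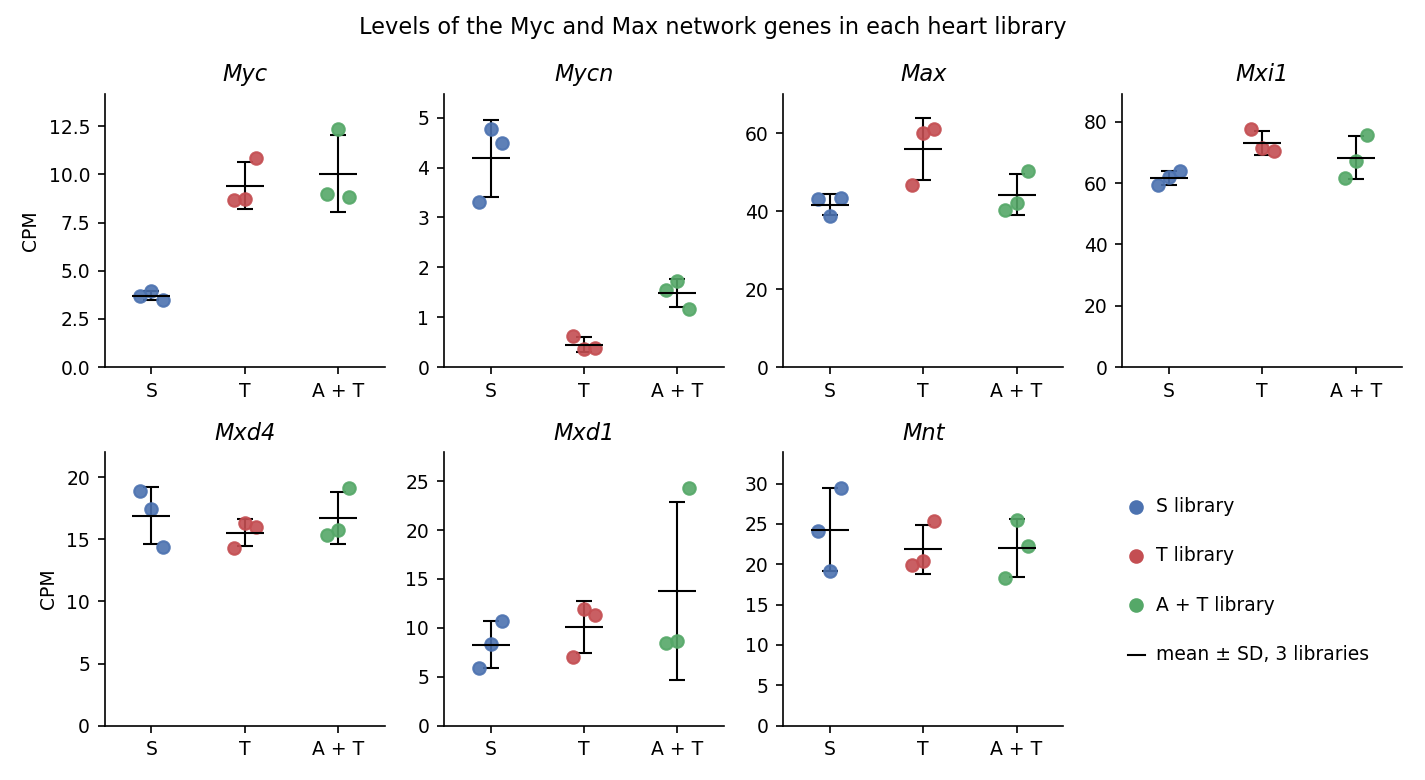
CPM of the 7 network genes in each library, by group (3 libraries a group, points), with the mean and SD as bars; each axis starts at 0 and has its own scale. Mycn lay at 3.32 to 4.77 CPM for S, 0.357 to 0.619 for T and 1.17 to 1.72 for A + T, while Myc lay at 3.47 to 3.96 CPM for S and at 8.67 or more in every other library.

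Myc had a log2 fold change of 1.33 for T vs. S (SE 0.17, 2.52-fold) and 1.43 in A + T vs. S (SE 0.17, 2.69-fold, adjusted P = 0.00244 from edgeR). Myc passed the test of A + T vs. S in all 9 other settings and in all 9 fits without an animal. Between A + T and T the difference of Myc was not past the test, with a log2 fold change of 0.10 and a 95% interval of −0.27 to 0.46 (adjusted P = 0.777 from edgeR).

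Levels of different genes can be compared only per length. RPKM values, CPM divided by the gene length in kilobases that the deposited table implies, placed Myc and Mycn side by side in S, at 1.54 ± 0.101 and 1.61 ± 0.295 (SD, n = 3), less than their spread apart. For T, Myc stood at 3.90 ± 0.514 and Mycn at 0.173 ± 0.0563 RPKM. For A + T, Myc stood at 4.16 ± 0.828 and Mycn at 0.567 ± 0.108 RPKM. Mycn made up 45.3%, 52.7% and 54.4% of the sum of both genes in the S libraries, 6.20%, 3.64% and 3.09% in the T libraries, and 13.8%, 11.4% and 10.9% in the A + T libraries. The share was thus ordered S, A + T, T with no overlap between groups. The sum itself was 3.14 ± 0.331 RPKM for S, 4.08 ± 0.490 for T and 4.73 ± 0.914 for A + T (SD, n = 3), with every S library below every other library. Mycl, the remaining family gene, is not in this sum.

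**Figure D2:**
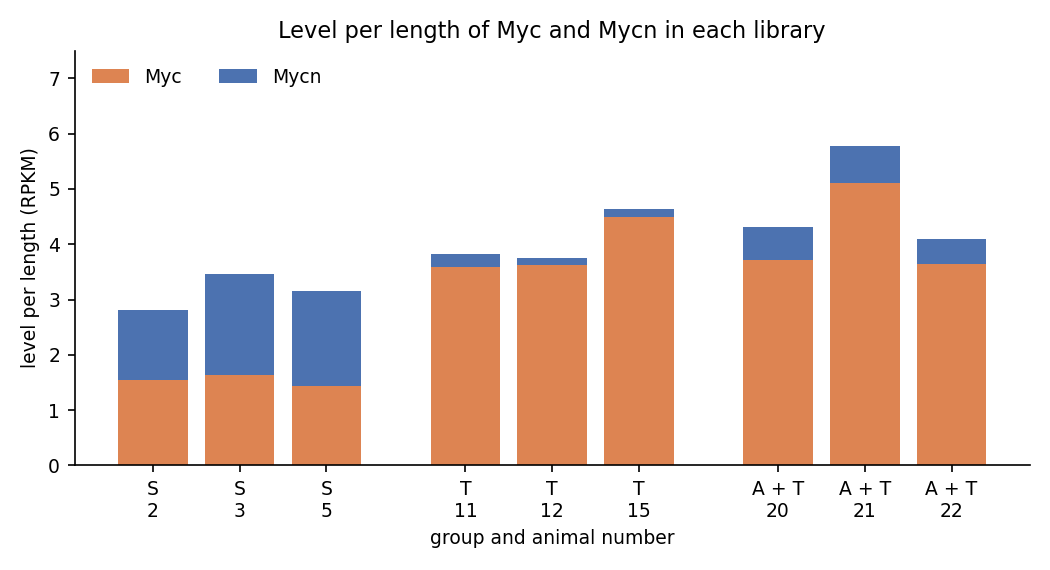
Level per length (RPKM) of Myc and Mycn stacked for each library, by group and animal number. Mycn makes up 45.3% to 54.4% of the bar for S, 3.09% to 6.20% for T and 10.9% to 13.8% for A + T, while every bar of T and A + T is taller than every bar of S, the lowest of them standing at 3.76 RPKM and the highest of S at 3.47 RPKM.

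Max, on the minus strand of chromosome 12 from 76937269 to 76962201, is the obligate partner of both the activators and the repressors. The S hearts measured 43.1, 38.7 and 43.4 CPM, the T hearts 46.7, 60.1 and 61.1, and the A + T hearts 40.4, 42.1 and 50.3. All T libraries lay above all S libraries, and animal 11 of T was the lowest of them and lay within the range of A + T. The log2 fold change of Max was 0.42 for T vs. S (SE 0.12, 1.34-fold). For A + T vs. T it was −0.34 (95% interval −0.60 to −0.07, adjusted P = 0.128 from edgeR) and in A + T vs. S 0.09 (95% interval −0.18 to 0.35, adjusted P = 0.694 from edgeR). Animal 22 had the highest Max of A + T, and without it the change in A + T vs. T was −0.44 and passed the test (adjusted P = 0.0456 from edgeR). Per length, Max stood at 20.7 ± 1.30 RPKM for S, 27.8 ± 3.99 for T and 21.9 ± 2.62 for A + T (SD, n = 3), above the sum of Myc and Mycn in every library. Max per unit of that sum was 5.53 to 7.62 for S, 6.04 to 7.94 for T and 3.62 to 6.08 for A + T, ranges that overlap.

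The repressor Mxi1, on the plus strand of chromosome 19 from 53310518 to 53375810, measured 59.3, 61.9 and 63.98 CPM in the S hearts, 77.5, 71.5 and 70.3 in the T hearts, and 61.8, 67.2 and 75.7 in the A + T hearts. Every T library was above every S library, while A + T overlapped both other groups. The log2 fold change of Mxi1 for T vs. S was 0.25 (SE 0.09, 1.19-fold), not under the threshold (adjusted P = 0.0714 from edgeR). Its log2 fold change was −0.10 in A + T vs. T (95% interval −0.29 to 0.09, adjusted P = 0.541 from edgeR) and 0.14 in A + T vs. S (95% interval −0.05 to 0.34, adjusted P = 0.323 from edgeR).

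Mxd1, on the minus strand of chromosome 6 from 86647042 to 86669161, is a repressor that rises when cells stop dividing and differentiate. It measured 5.86, 8.32 and 10.7 CPM in the S hearts, 6.998, 11.9 and 11.3 in the T hearts, and 8.41, 8.61 and 24.3 in the A + T hearts. The high value was that of animal 22, while all other libraries lay at or under 11.9 CPM. Without animal 22 the log2 fold change of A + T vs. T went from 0.46 to −0.24, and that of A + T vs. S from 0.74 to 0.05. Neither comparison passed the test with that animal (adjusted P = 0.540 and 0.270 from edgeR, 95% intervals −0.43 to 1.35 and −0.15 to 1.64). Animal 22 also had 1278 CPM summed over the 3 airway and lung markers with a row, mostly Scgb1a1 of club cells, against at most 104 CPM (animal 12 of T) in any other library. The 1 of these markers that was tested, Scgb3a1, was higher in T vs. S and was not high in animal 22 (0.431 CPM). Its T values were 1.11, 23.4 and 1.40 CPM in animals 11, 12 and 15, so the T mean rests mostly on animal 12. The part of such tissue in the Mxd1 value was not tested.

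Mxd4, on the minus strand of chromosome 5 from 34173883 to 34187720, and Mnt, a widely expressed antagonist of Myc, on the plus strand of chromosome 11 from 74830920 to 74845725, overlapped between all groups. Mxd4 measured 18.8, 17.5 and 14.4 CPM in the S hearts, 14.3, 16.3 and 15.99 in the T hearts, and 15.3, 15.7 and 19.2 in the A + T hearts. Mnt measured 24.1, 19.2 and 29.5 CPM in the S hearts, 19.9, 20.4 and 25.3 in the T hearts, and 18.4, 25.5 and 22.2 in the A + T hearts. Their log2 fold changes were −0.13 (95% interval −0.41 to 0.16) and −0.15 (−0.53 to 0.23) for T vs. S. For A + T vs. T they were 0.11 (95% interval −0.18 to 0.40) for Mxd4 and 0.02 (−0.36 to 0.40) for Mnt. For A + T vs. S the values were −0.02 (95% interval −0.30 to 0.27) and −0.14 (−0.51 to 0.24). Neither gene passed the test in any comparison. With 3 libraries a group, differences of the sizes that these intervals span remain possible.

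**Figure D3:**
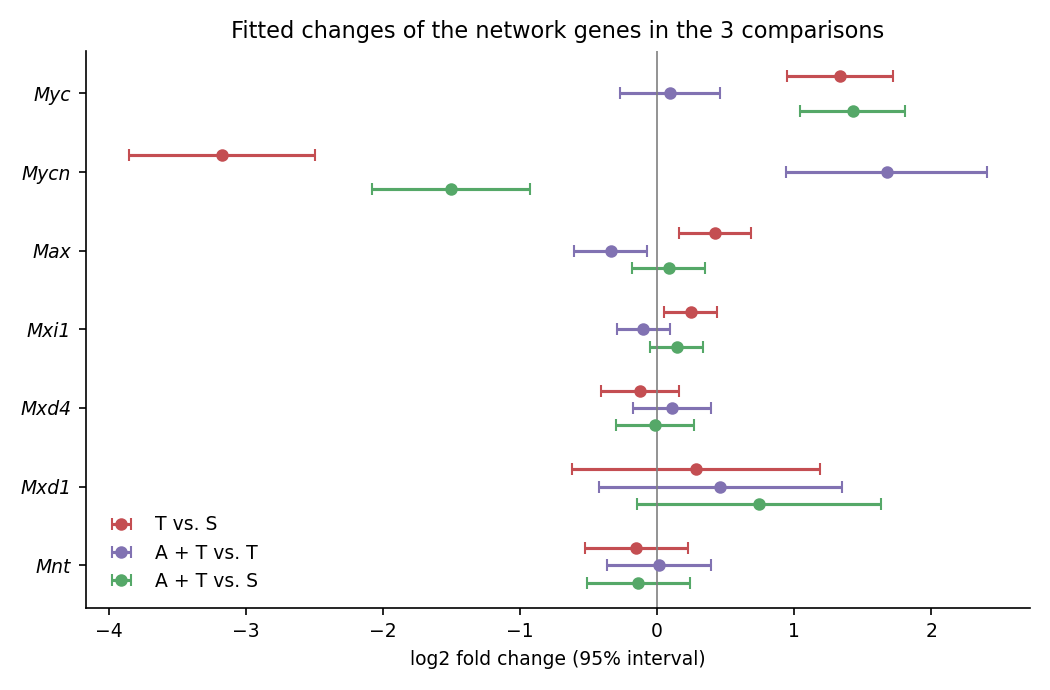
Fitted log2 fold changes of the 7 network genes in the 3 comparisons, with 95% intervals from edgeR's quasi-likelihood fit. Mycn (−3.18 for T vs. S, 1.68 for A + T vs. T, −1.50 for A + T vs. S) and Myc (1.33, 0.10 and 1.43) lie far from 0 on opposite sides in the comparisons with S, and the intervals of Mxd4, Mxd1 and Mnt cross 0 in all 3.

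As a description, 3 of the 7 measured members had an adjusted P-value under 0.05 for T vs. S, 2 higher (Myc and Max) and 1 lower (Mycn), where 21.2% of all genes tested had, 10.3% being higher and the rest lower. Since the fall of Mycn was known when the family was chosen, nothing is read from this count. Max was no longer under the threshold when any S animal, or animal 12 or 15 of T, was left out. Between A + T and T 1 of 7 members passed, Mycn, higher, where 5.88% of all genes did (3.09% higher and 2.79% lower). Between A + T and S 2 of 7 passed, Myc higher and Mycn lower, where 8.31% of all genes did (4.67% higher and 3.64% lower). In the order of these 3 comparisons the median log2 fold change of the members was 0.25, 0.10 and 0.09, and that of all genes lay within 0.01 of 0 each time.

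The 4 repressors Mxd1, Mxd4, Mxi1 and Mnt, summed per length, stood at 32.2 ± 0.628 RPKM for S, 32.9 ± 1.18 for T and 33.9 ± 5.113 for A + T (SD, n = 3). The sum was close in all libraries but animal 22 of A + T, which had 39.6 RPKM where the others had 29.6 to 33.8. Per unit of Myc and Mycn summed, the repressors were 9.11 to 11.7 for S, 7.29 to 8.87 for T and 5.63 to 9.65 for A + T, so T lay below S while A + T overlapped both. Mxd4 is the largest term of this sum for S, at 14.3 ± 1.92 RPKM, and its level per length is uncertain: the deposited table implies a length of 1186 bases for it, whereas its exons in GENCODE M21 cover 3882 bases.

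Other proteins that share Max, pair with its relative Mlx, bind the E-box or act as corepressors were not past the test in the fit of all libraries. Of 11 such genes, 10 were tested (Mxd3 was not analysed here) and 0 passed in each of the 3 comparisons with edgeR, with DESeq2 and with limma-voom. Of all genes 21.2% passed with edgeR for T vs. S, 5.88% for A + T vs. T and 8.31% for A + T vs. S. With so few genes, nothing is read from the counts of 0. Of the 10 genes, 0 had an unadjusted P-value under 0.05 from edgeR for T vs. S, 0 for A + T vs. T and 1 for A + T vs. S. The list medians all lay within 0.03 of 0. For T vs. S the largest difference was that of Mlxipl, the carbohydrate response factor ChREBP, with a log2 fold change of 0.40 (95% interval −0.08 to 0.88, adjusted P = 0.214 from edgeR). Mga, a repressor scaffold that binds Max, gave 0.01 (95% interval −0.21 to 0.24) and Mlx 0.13 (−0.07 to 0.33). The corepressors Sin3a (0.21, 95% interval −0.01 to 0.42) and Sin3b (−0.01, −0.16 to 0.14), and the deacetylases Hdac1 (−0.01) and Hdac2 (−0.17), were likewise not past the test there. Mlxip gave 0.03, and the E-box factors Usf1 and Usf2 gave 0.04 and −0.11. For A + T vs. S the gene with an unadjusted P-value under 0.05 was Usf1 (log2 fold change 0.21, adjusted P = 0.190 from edgeR).

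Of 23 genes for Myc cofactors and for the turnover of Myc protein, all tested, 5 passed for T vs. S, 3 higher and 2 lower, a share near the 21.2% of all genes, with a list median of −0.10. The number was 3 without any S animal or without animal 11 of T. Higher were Pim3 (log2 fold change 1.47, SE 0.20) and Pim1 (0.57, SE 0.11), kinases that stabilise Myc, and Usp28 (0.43, SE 0.13), a deubiquitinase that protects it. Pim3 ranged from 44.9 to 58.5 CPM in the S hearts, from 114 to 182 in the T hearts and from 74.7 to 119 in the A + T hearts. Lower were Bin1, which binds Myc and limits it (−0.54, SE 0.15), and Ruvbl2, an ATPase of Myc coactivator complexes (−0.53, SE 0.11). Pim3 was the 1 gene past the test of A + T vs. S (0.82, SE 0.20, adjusted P = 0.0326 from edgeR), where 8.31% of all genes passed. No gene of the list passed there without any 1 of animals 2, 3, 5, 11, 21 and 22, or with scaling by library totals alone. For A + T vs. T, where 5.88% of all genes passed, 0 passed with edgeR or limma-voom and 1 was lower with DESeq2, while 6 had an unadjusted P-value under 0.05 with edgeR. The list median was −0.04 for A + T vs. T and −0.03 for A + T vs. S.

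Genes that Myc is known to activate moved in both directions. Of 51, all tested, 11 passed for T vs. S (7 higher and 4 lower), near the 21.2% of all genes, with a median log2 fold change of 0.03. Higher were Slc2a1, the glucose transporter GLUT1 (0.66, SE 0.14), Mcm4, a replicative helicase subunit (0.53, SE 0.12), and Ldha, the lactate dehydrogenase A chain (0.49, SE 0.08). The nucleolar genes Ncl (0.34) and Npm1 (0.41) were also among the 7 that were higher. Lower were Ccnd1, cyclin D1 (−1.59, SE 0.09), Tfrc, the transferrin receptor (−1.57, SE 0.33), and Cad, the first enzyme of pyrimidine synthesis (−0.55, SE 0.15), followed by Ccnd2, cyclin D2 (−0.55, SE 0.10).

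Ccnd1 separated the 3 groups without overlap, with 33.8 to 34.9 CPM in the S hearts, 10.5 to 12.2 in the T hearts and 19.3 to 22.7 in the A + T hearts. Compared with T, A + T was higher (log2 fold change 0.86, SE 0.09, adjusted P = 0.00269 from edgeR), and compared with S it was lower (−0.73, SE 0.09, adjusted P = 0.00253 from edgeR). From high to low its groups stood as S, A + T and T, as did those of Mycn. The endothelial markers Apln and Cdh5 and the fibroblast marker Tcf21 below had this order too. What set this order was not tested. The other 2 activated targets past the test of A + T vs. T were Imp4, a factor of ribosomal RNA processing (−0.37), and Ldha (−0.36), both lower, so that 3 of 51 passed where 5.88% of all genes did. That number was 1 without any 1 of animals 3, 5, 11, 15, 20 and 21. Past the test of A + T vs. S were 3 of 51, Mcm4 higher (0.48) and Ccnd1 and Ccnd2 (−0.49) lower, where 8.31% of all genes passed, and 1 without animal 2 or animal 3. The list median was −0.04 for A + T vs. T and 0.01 for A + T vs. S. The T hearts had less Tfrc (47.4 to 63.8 CPM) than the S hearts (136 to 192), and the A + T hearts spanned both, from 48.96 to 156 CPM.

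Of 10 genes that Myc is known to repress, all tested, 6 passed for T vs. S and all 6 were higher, with a list median of 0.46. Of all genes 21.2% passed there and 10.3% were higher. The list was drawn up with earlier results of these data known, so nothing is read from this count. The highest were Cdkn1a, the cyclin-dependent kinase inhibitor p21 (1.17, SE 0.17), Gadd45b (1.09, SE 0.31) and Gadd45a (0.58, SE 0.17), growth arrest genes that also answer to stress, and Cdkn1b, Ndrg1 and Ndrg2 followed at 0.43, 0.48 and 0.32. The S and T libraries overlapped for Gadd45b. Cdkn1a ranged from 34.95 to 46.8 CPM in the S hearts, from 77.9 to 113 in the T hearts and from 39.8 to 55.2 in the A + T hearts. It was lower in A + T than in T (−1.02, SE 0.16, adjusted P = 0.00894 from edgeR), and no other gene of the list passed there, where 5.88% of all genes did. For A + T vs. S 2 passed, Gadd45a (0.65) and Cdkn1b (0.48), both higher, where 8.31% of all genes passed, with a list median of 0.39. This number was 0 without animal 2 or animal 3, 1 without animal 5, 12, 20 or 21, and 0 when libraries were scaled by their totals alone. The number for T vs. S was 2 with that scaling, and 3 without animal 3, 5 or 11.

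**Figure D4:**
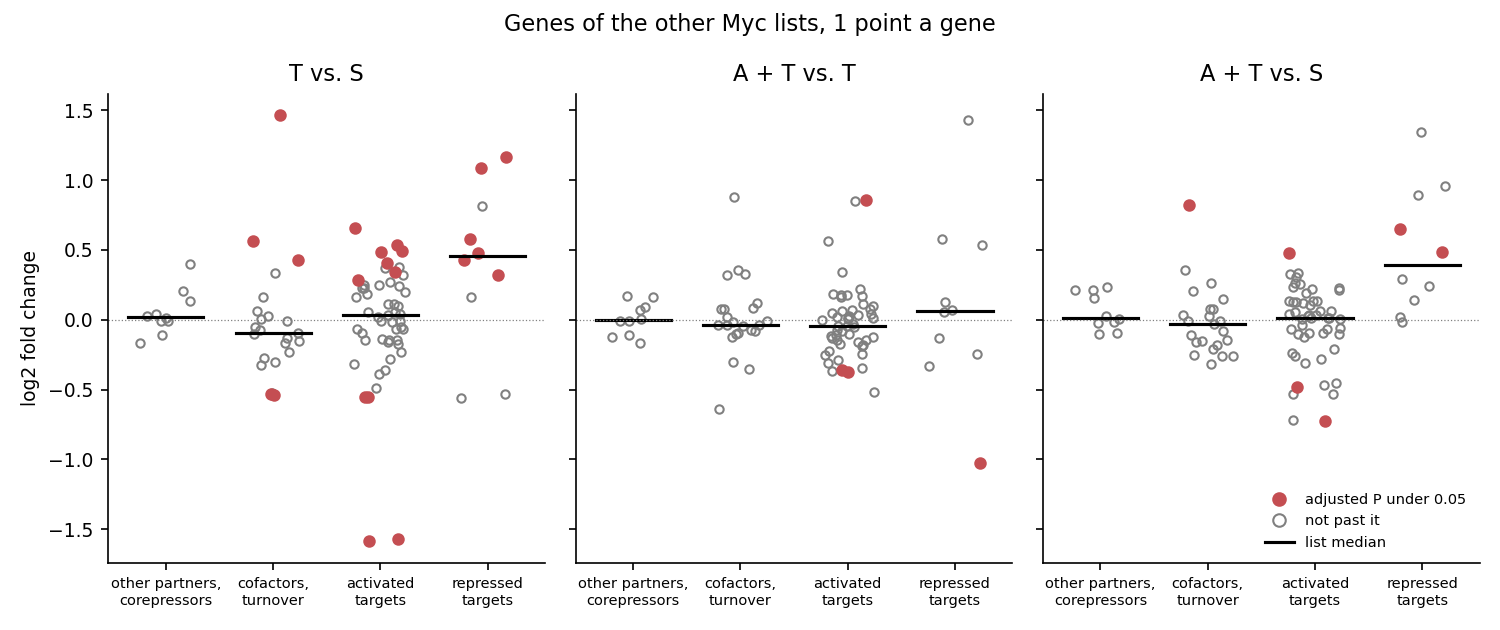
Log2 fold changes of the genes of 4 lists in the 3 comparisons, 1 point a gene. The lists hold 10 other partners, E-box factors and corepressors, 23 cofactor and turnover genes, 51 activated targets and 10 repressed targets. List medians are drawn as lines, and genes past an adjusted P-value of 0.05 are filled. The activated targets centre near 0 (medians 0.03, −0.04 and 0.01), with Ccnd1 and Tfrc far below in T vs. S, and the repressed targets have their highest median, 0.46, in T vs. S.

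In bulk tissue, fewer cells of a type and less RNA per cell cannot be told apart, and markers of other cells moved with Mycn. Of the 5 endothelial markers 4 were lower in T vs. S at an adjusted P-value under 0.05 and none higher, and their summed level was 666 to 778 CPM for S, 389 to 489 for T and 510 to 598 for A + T. Among them Apln, the ligand apelin, had the order of Mycn, with log2 fold changes of −2.98 for T vs. S, 2.00 for A + T vs. T and −0.98 for A + T vs. S, while Cdh5, an endothelial junction gene, moved less (−0.96, 0.42 and −0.55). All 4 fibroblast markers were lower too, with sums of 1052 to 1249 CPM for S, 716 to 845 for T and 849 to 1191 for A + T. All 4 markers of smooth muscle and pericytes were also lower, with sums of 344 to 420 CPM for S, 167 to 235 for T and 206 to 304 for A + T. Against T, A + T was higher for 2 of the endothelial and 2 of the fibroblast markers and for none of the smooth muscle and pericyte ones, where 3.09% of all genes were higher. None of these markers was at 0 in any library. Their part in the Mycn values was not tested. Heart muscle markers summed to 51634 to 57840 CPM for S, 39174 to 48140 for T and 35341 to 51378 for A + T, with 1 of 5 higher and 1 lower in T vs. S.

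**Figure D5:**
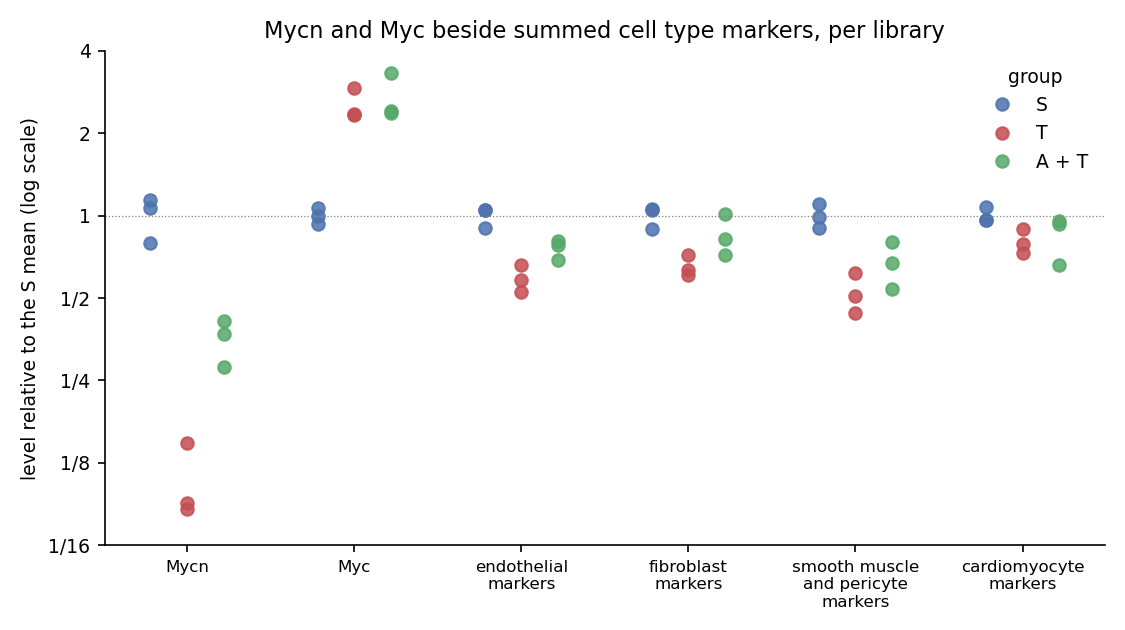
Level of Mycn, of Myc and of the summed markers of 4 cell types in each library, relative to the mean of the S libraries on a log scale. The medians of the summed markers order the groups as Mycn does for all 4 cell types, heart muscle included, over a smaller range. No T or A + T marker sum shown reaches the relative level of Myc.

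Of the 4 macrophage markers, 0 passed for T vs. S with edgeR and 0 had an unadjusted P-value under 0.05. In A + T 3 were higher than in either other group (sums of 107 to 118 CPM for S, 102 to 110 for T and 122 to 191 for A + T). Mrc1 went the other way without passing, with log2 fold changes of −0.31 in A + T vs. T and −0.36 in A + T vs. S. Of the 3 proliferation markers, 2 were tested. Top2a was lower in T vs. S (log2 fold change −1.53, SE 0.41) and both were higher in A + T vs. T, with sums over the 3 of 4.42 to 7.52 CPM for S, 4.10 to 4.71 for T and 7.33 to 11.8 for A + T, and Ccnb1 at 0 in animals 11 and 15 of T. Of the 6 atrial markers 1, Bmp10, was lower in T vs. S, with sums of 3014 to 3099 CPM for S, 870 to 4569 for T and 805 to 2073 for A + T. Adipocyte markers (0 of 3 called, sums of 1.05 to 68.2 CPM) and the erythroid marker measured (68.4 to 341 CPM) varied within the groups.

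The genes whose log2 CPM followed Mycn most closely over the 9 libraries were Trib2 (Pearson r = 0.993), Nr3c1 (0.992), Cmc2 (0.990), Fam131a (0.988) and Gm6086 (0.981). Nr3c1 encodes the glucocorticoid receptor and Trib2 a pseudokinase. Their levels varied less, with mean CPM of 139 for S, 99.5 for T and 116 for A + T in the case of Nr3c1, and of 33.4, 22.8 and 28.2 in the case of Trib2. For Myc the most alike were Tmem136 (r = 0.994), Firre (0.973), Zscan2 (0.971), Mdm4 (0.968) and Smyd3 (0.968), of which Mdm4 encodes an inhibitor of p53 and had mean levels of 41.2, 54.02 and 57.7 CPM. These correlations were picked as the highest of 13364, rest on libraries that fall into 3 groups, and are a description of likeness only.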

How the data were processed

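RNA was extracted from snap-frozen hearts and sequenced from both ends. The authors aligned the reads to mm10 with STAR, assigned uniquely mapped reads to refGene genes with featureCounts by strand, and deposited raw counts per gene for each library. A deposited table of log2 normalized values equals the log2 CPM computed here (TMM, prior count 2) less a constant per gene (median SD 1.66e-05). The constant was read as gene length, since the lengths it gives had a Spearman correlation of 0.878 with merged GENCODE exons over 13372 genes. Tool versions are not given in the sources used here.

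As in the study's methods, a gene was dropped when over 4 libraries had it below 0.5 CPM, which removed 526. The 3 comparisons between groups came from a single edgeR 4.0.16 fit to the 9 libraries in R 4.3.3 (quasi-likelihood test, TMM), with Benjamini-Hochberg adjustment over 13364 genes. The SE is the log2 fold change over the square root of F. The fit was tested on simulated data. Alternatives used limma 3.58.1 and DESeq2 1.42.0, other scalings and filters, and fits without an animal. Members and lists were chosen with earlier results of these data known. Named are all members and, per list and comparison, up to 3 called genes with the largest rise and fall; Ncl, Npm1, Ccnd2, Cdkn1b, Ndrg1 and Ndrg2 in T vs. S, and the markers named singly, were added after their values were seen. Where no SD is given beside a range, n = 3. Figures were made with matplotlib 3.10.9.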

Additional observations from a re-analysis of the deposited data

How the results depend on the processing

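Of 375 values of single members under the alternatives, 347 kept direction and side of the threshold. Scaling by library totals alone lost the call of Max in T vs. S (log2 fold change 0.39) and lowered the counts called to 3 for cofactors, 5 for activated and 2 for repressed targets in T vs. S, and to 0, 1 and 0 in A + T vs. S. Over all genes it called 1637 instead of 2837 in T vs. S, 438 instead of 786 in A + T vs. T, and 555 instead of 1110 in A + T vs. S. Requiring at least 10 counts in every library dropped Mycn from the test, which left 1 member called in A + T vs. S and 0 in A + T vs. T. Fitting only the groups compared left 0 members, 1 activated target and 217 genes called in A + T vs. T, and called 1 gene of the other partners in T vs. S, where Mxi1 also passed. DESeq2 called 1 cofactor, 5 activated targets, 2 repressed targets and 1200 genes in A + T vs. T. The cause was not tested.

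With each animal left out in turn, the members called lay between 2 and 4 in T vs. S, 0 and 2 in A + T vs. T, and 1 and 2 in A + T vs. S. In the same order, cofactors lay between 3 and 6, 0 and 1, and 0 and 1, activated targets between 8 and 16, 1 and 4, and 1 and 3, repressed targets between 3 and 6, 1 and 1, and 0 and 2, other partners between 0 and 1, 0 and 0, and 0 and 1, and all genes between 1765 (without animal 11) and 3786 (22), 130 (11) and 1006 (22), and 269 (2) and 1086 (12). The highest counts of members, cofactors and activated targets in T vs. S came without animal 22 of A + T.

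Signs turned for uncalled members alone. Upper-quartile scaling gave 0.0055 for Mxd4 in A + T vs. S. Without an animal, log2 fold changes in A + T vs. S ran from −0.12 to 0.074 for Mxd4, −0.011 to 0.15 for Max and −0.28 to 0.024 for Mnt. In A + T vs. T they ran from −0.10 to 0.13 for Mnt, −0.24 to 0.72 for Mxd1, −0.0016 to 0.17 for Mxd4 and −0.076 to 0.20 for Myc, and in T vs. S from −0.30 to 0.0090 for Mnt.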
